A study of Rattus norvegicus with 4 samples.

Results

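The 10 genes described here are matrix metalloproteinases (Mmp2, Mmp3, Mmp7, Mmp9, Mmp11, Mmp13 and Mmp14) and their tissue inhibitors (Timp1, Timp2 and Timp3). They were chosen by name, with earlier results of these data known. Every probe set whose platform annotation names only 1 of them was used, which gave 17 of 31099 probe sets and 10 of 14217 named genes. Their signal comes from 1-colour oligonucleotide arrays, 1 for each of 4 mammary cancers of female Sprague-Dawley rats, an outbred stock. All 4 cancers belong to 1 group: the rats received a whole-body carbon-ion dose of 0.5 Gy (290 MeV/u, spread-out Bragg peak of 6 cm) at an age of 7 weeks, and were switched at 9 weeks to an AIN-76A diet of which corn oil formed 23.5%. The labels do not say whether the cancers came from separate rats. Neither normal gland nor cancers of unirradiated rats are part of the data used here, so the values describe differences between cancers and no effect of radiation or diet.

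Metalloproteinases are zinc-dependent enzymes that cut collagens, laminins and other matrix proteins as well as growth factors and receptors at the cell surface. Most are secreted as inactive precursors, whose propeptide must be removed by plasmin, furin or another metalloproteinase, and TIMPs block the active enzyme by binding its catalytic site. In the mammary gland they remodel the matrix around ducts during branching and involution, and in breast tumours many of them are made by fibroblasts and leukocytes as well as by the cancer cells. An array measures their transcripts only, not the active enzyme.

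Values are the deposited signal or log2(signal + 16), and a range is the highest minus the lowest tumour on that log2 scale. A range of at least 1 is called 2-fold and one of at least 2 is called 4-fold. The addition of 16 understates differences of dim probe sets. Where a gene had several probe sets, the one with the highest mean log2 signal stands for the gene. The further probe sets of the 10 genes are all given, and those of other genes only where stated. Each tumour has 1 array, so no difference between tumours has a replicate check and no p-value is given. Signals of different probe sets are not set against each other, since probe sets differ in brightness for the same amount of RNA.

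The family varied between the cancers more widely in the enzymes than in the inhibitors named here. Of the 10 genes, 6 had a 2-fold range (5 of 7 metalloproteinases and 1 of 3 TIMPs), whereas 21.1% of all named genes did. A 4-fold range was found in 3 of the 10, Mmp13, Mmp7 and Mmp9, against 3.99% of all named genes. The median range was 1.20 log2 over the 10 genes, 1.82 over the 7 metalloproteinases and 0.62 over the 3 TIMPs, and 0.55 over all named genes. Among the 17 probe sets, 9 had a 2-fold range, against 22.2% of all probe sets that name 1 gene. By mean, 9 of the 10 genes and 14 of the 17 probe sets lay at or above 7.81 log2, a signal of 209, which is the median of all probe-set means and is called the median level below. Mmp9 was the gene under it. Among the 9403 named genes at or above that level, 12.4% had a 2-fold range and 2.42% a 4-fold range.

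**Figure D1:**
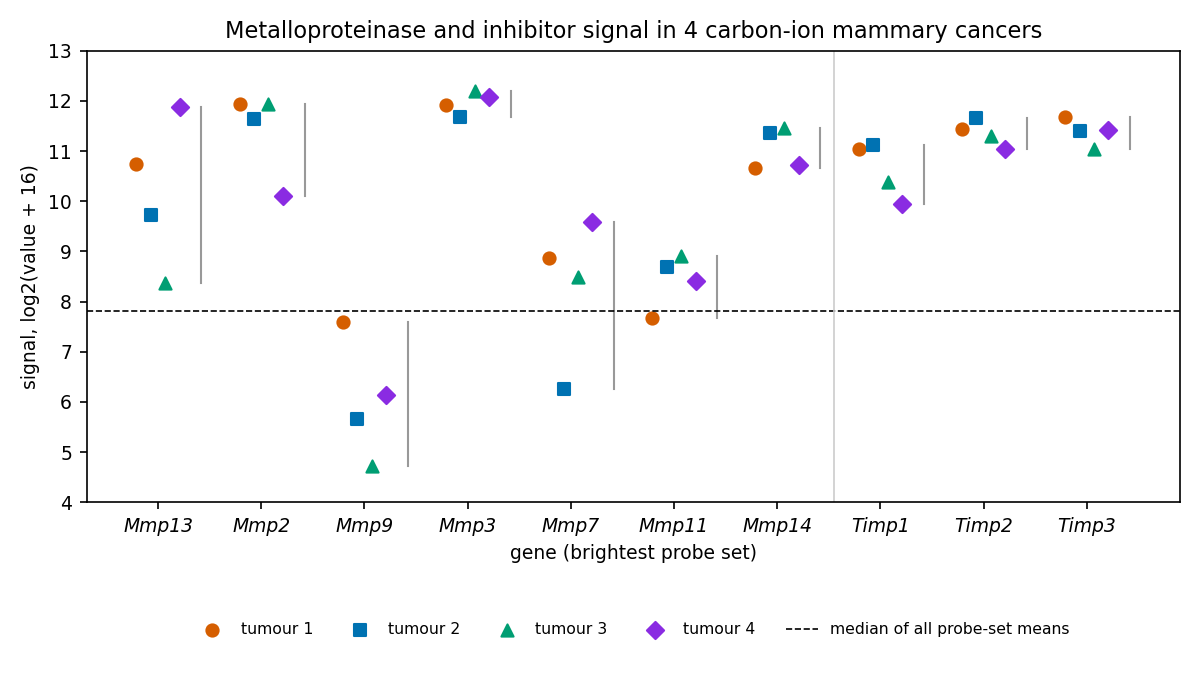
Signal of the brightest probe set of each gene, as log2(value + 16), in the 4 cancers; each symbol is 1 tumour on 1 array, the grey bar spans lowest to highest, and the dashed line is the median of all probe-set means (7.81). Mmp13, Mmp7 and Mmp9 have the widest spans, and heights of different genes are not comparable.

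**Figure D2:**
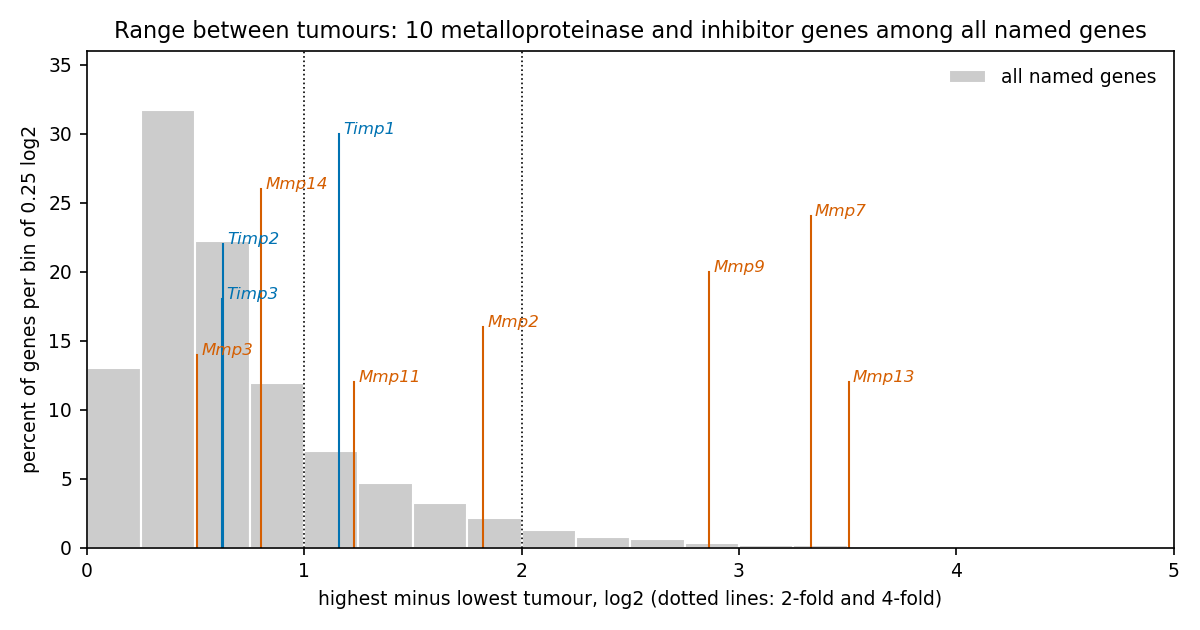
Share of all 14217 named genes in bins of the range between tumours (grey bars, log2), with the range of each metalloproteinase (orange) and TIMP (blue) as a vertical line whose height has no meaning. Mmp13, Mmp7 and Mmp9 lie beyond the 4-fold line, and Mmp3, Timp2, Timp3 and Mmp14 lie below the 2-fold line.

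Mmp13, Mmp7 and Mmp3 belong to a cluster of metalloproteinase genes on rat chromosome 8. In RefSeq's annotation of GRCr8, the family members there follow in the order Mmp13, Mmp12, Mmp1b, Mmp3, Mmp1, Mmp10, Mmp8, Mmp27, Mmp20 and Mmp7. The other 7 genes lie on 7 other chromosomes. Several genes of this cluster are known for promoters with a TATA box and a nearby site for AP-1, the dimer of Fos and Jun proteins. The 150 bases before the RefSeq start site (GRCr8, plus strand) are shown for the 3 genes because they share both elements but differ in how far their signal varied. Capitals mark TATAAA and TGANTCA, a pattern for AP-1 sites that was searched with any base at N and is thus wider than the consensus. Mmp13 is at chr8:12782679-12782828, Mmp7 at chr8:13132893-13133042 and Mmp3 at chr8:12925131-12925280.
Mmp13: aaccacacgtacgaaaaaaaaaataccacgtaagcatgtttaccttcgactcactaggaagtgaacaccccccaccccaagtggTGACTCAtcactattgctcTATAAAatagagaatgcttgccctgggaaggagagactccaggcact
Mmp7: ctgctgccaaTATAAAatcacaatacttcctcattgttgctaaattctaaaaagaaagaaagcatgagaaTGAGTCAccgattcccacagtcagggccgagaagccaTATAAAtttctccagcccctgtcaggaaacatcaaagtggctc
Mmp3: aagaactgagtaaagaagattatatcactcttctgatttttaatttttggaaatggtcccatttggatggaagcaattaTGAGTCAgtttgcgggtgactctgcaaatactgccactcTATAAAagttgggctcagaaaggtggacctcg

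The AP-1 match begins 66 bases before the start site in Mmp13, 80 in Mmp7 and 71 in Mmp3. A TATAAA match begins 47, 43 and 32 bases before it in the same order, and Mmp7 has another at 140. The search covered 250 bases before and 50 after the start on both strands, and 7 of the 10 genes were in the promoter table. TGANTCA was found in 3 of the 7, against 7.33% of 33469 RefSeq promoters, and TATAAA in the same 3, against 14.2%. Both elements occurred together in 1.36% of all promoters. The ETS motif AGGAAG was in 4 of the 7 (Mmp13, Mmp7, Mmp3 and Timp1), against 34.5% of promoters. No matches of different motifs overlapped in these genes. Of the cluster neighbours outside the 10 genes, only Mmp12, Mmp10 and Mmp8 were looked at. Mmp12 and Mmp10 also held TGANTCA and TATAAA, and Mmp8 held TATAAA without TGANTCA. These matches are descriptions of the letters and not measured sites.

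Mmp13, a collagenase that cleaves fibrillar collagens, had the widest range of the 10 genes with all 4 tumours and a pseudocount of 16, though not with a pseudocount of 1, where Mmp9 and Mmp7 ranged over 3.95 and 3.61 log2 and Mmp13 over 3.57. Its signal was 1707, 835, 314 and 3727 in tumours 1 to 4, or 10.75, 9.73, 8.37 and 11.87 log2 (mean 10.18 ± 1.49, SD, n = 4). All 4 tumours were separated from their neighbours in order by at least 1.02 log2, with tumour 4 highest and tumour 3 lowest. The range was 3.50 log2, and 0.499% of named genes had one as large. It was 2.14 without tumour 3 and 2.39 without tumour 4, so the 4-fold range did not rest on a single tumour. All 4 values were above the median level, and Mmp13 had only this probe set (1388204_at).

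Mmp7, the matrilysin made by glandular epithelium, was low in tumour 2. Its signal was 452, 61.0, 345 and 758 in tumours 1 to 4, or 8.87, 6.27, 8.49 and 9.60 log2 (mean 8.31 ± 1.43, SD, n = 4). Tumour 2 was 2.23 log2 below the next tumour and under the median level, so the size of the gap is uncertain. The other 3 spanned 1.10 log2, which is the range without tumour 2, against 3.33 with it. Tumour 4 was highest for Mmp7 as for Mmp13, but the order of the others differed. Tumour 3 was lowest for Mmp13 and within 0.38 log2 of tumour 1 for Mmp7.

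Mmp3, or stromelysin-1, which cleaves many matrix proteins and activates other metalloproteinase precursors, varied little. Its signal was 3862, 3268, 4655 and 4305 in tumours 1 to 4, or 11.92, 11.68, 12.19 and 12.08 log2 (mean 11.97 ± 0.22, SD, n = 4). The range of 0.51 log2 was matched or exceeded by 54.3% of named genes, and it was 0.27 without tumour 2. No neighbours in the order of tumours were more than 0.24 log2 apart. Of the 3 genes whose promoters are shown above, 2 thus had a 4-fold range and the third was near the median range of all genes.

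Mmp2, a gelatinase that degrades basement membrane collagen and is made mainly by fibroblasts, was low in tumour 4. Its brightest probe set (1370301_at) read 3899, 3160, 3902 and 1090 in tumours 1 to 4, or 11.94, 11.63, 11.94 and 10.11 log2 (mean 11.40 ± 0.87, SD, n = 4). Tumour 4 lay 1.52 log2 below the nearest of the other 3, which were within 0.30 log2 of each other. The range of 1.82 log2 was therefore 0.30 without tumour 4. The other probe set (1369825_at) was dim, at 94.7, 130, 96.6 and 126 in tumours 1 to 4, and did not share this pattern. Its values lay between 6.79 and 7.19 log2, all under the median level, and tumour 4 was above tumours 1 and 3 on it.

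The same tumour had the lowest signal of most fibroblast genes. Tumour 4 was lowest for 10 of 12 fibroblast markers, all 12 lay under the average of tumours 1 to 3, and the median difference was -1.11 log2. Of all 14217 named genes, 3312 were lowest in tumour 4 and 50.9% exceeded that average. The summed signal of the 12 markers was 22214 in tumour 4, against 46444 to 56366 in the others. Col1a1, a chain of type I collagen, was at 10.98 log2 in tumour 4 against 12.42 to 13.25. Pdgfra, a receptor of fibroblasts, was at 8.54 against 10.02 to 11.90, whereas Sparc, a collagen-binding matrix protein, was at 12.65 against 12.53 to 12.87. The part of these markers in the Mmp2 difference was not tested. In such bulk tumour RNA, fewer cells of a type and less RNA per cell cannot be told apart.

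Mmp9, the gelatinase of neutrophils and macrophages, was dim in all 4 cancers and highest in tumour 1. Probe set 1369166_at read 176, 34.4, 10.4 and 54.9 in tumours 1 to 4, or 7.59, 5.65, 4.73 and 6.15 log2 (mean 6.03 ± 1.19, SD, n = 4). Probe set 1398275_at read 206, 6.96, 17.4 and 34.8, or 7.80, 4.52, 5.06 and 5.67 log2 (mean 5.76 ± 1.43, SD, n = 4). Both placed tumour 1 highest and tumour 4 next, with tumour 1 ahead by 1.44 and 2.13 log2. They disagreed on the lowest tumour, which was tumour 3 on the first and tumour 2 on the second. All 8 values were under the median level, so the order of tumours 2 and 3 and the size of the ranges, 2.86 and 3.27 log2, are uncertain. With a pseudocount of 64 the range of the first was 1.69, which is no longer 4-fold. On the first probe set the range was 1.42 without tumour 1.

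Most macrophage and neutrophil markers were also highest in tumour 1. Of 12 macrophage markers, 10 were highest there and all 12 exceeded the average of tumours 2 to 4, with a median difference of 0.98 log2. Of all named genes, 29.9% were highest in tumour 1 and 49.8% exceeded that average. Their summed signal was 26314 in tumour 1, against 12952 to 17119 in the others. Of 9 neutrophil markers listed, 5 had a named probe set. Of these 5, 4 were highest in tumour 1, and their summed signal was 1133 against 151 to 487. All 5 had a mean under the median level, and Camp, an antimicrobial peptide of neutrophil granules, stayed between 4.23 and 4.65 log2 in all 4 tumours. S100a8, a calcium-binding protein abundant in neutrophils, was at 8.32 log2 in tumour 1 against 4.68 to 6.88. The part of these cells in the Mmp9 difference was not tested.

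Mmp11 and Mmp14, both activated inside the cell by furin, were ranked alike, with tumour 3 highest, then tumours 2, 4 and 1. Mmp11, the stromelysin of the stroma in human breast carcinomas, read 189, 395, 466 and 324 in tumours 1 to 4, or 7.68, 8.68, 8.91 and 8.41 log2 (mean 8.42 ± 0.53, SD, n = 4). Tumour 1 was the only one under the median level, and it was 0.73 log2 below the next. The range was 1.23 log2, or 0.50 without tumour 1. Mmp14, a membrane-bound enzyme that activates the precursor of Mmp2, read 1594, 2608, 2789 and 1681 on its brightest probe set (1367860_a_at), or 10.65, 11.36, 11.45 and 10.73 log2 (mean 11.05 ± 0.42, SD, n = 4). Tumours 2 and 3 lay at least 0.63 log2 above tumours 1 and 4. The other bright probe set of Mmp14 (1378225_at) read 1855, 2083, 1819 and 1247, so it placed tumour 4 lowest and tumour 1 beside tumour 3. Both Mmp14 probe sets placed tumours 2 and 3 above tumour 4 and tumour 2 above tumour 1, and neither had a 2-fold range.

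**Figure D3:**
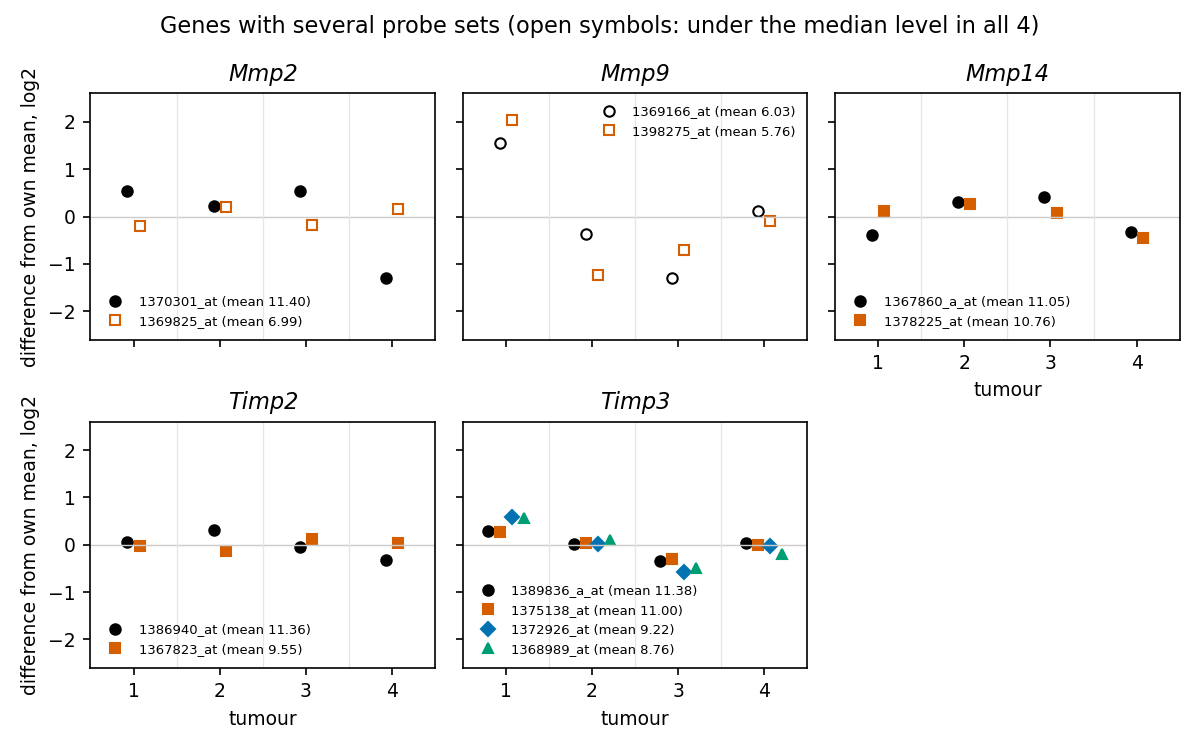
Difference of each tumour from the probe set's own mean (log2) for the 5 genes with several probe sets; each symbol kind is 1 probe set, named with its mean log2 signal, and open symbols lie under the median level in all 4 tumours. The 4 probe sets of Timp3 follow each other closely, and those of Mmp2 do not.

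Timp1, Timp2 and Timp3 did not share one order of tumours. Timp1, the inducible secreted inhibitor, read 2094, 2202, 1312 and 975 in tumours 1 to 4, or 11.04, 11.11, 10.37 and 9.95 log2 (mean 10.62 ± 0.56, SD, n = 4). Tumours 1 and 2 were within 0.07 log2 of each other and at least 0.67 above tumours 3 and 4. The range was 1.16 log2, or 0.74 without tumour 4. Timp1 had only this probe set, and every value was above the median level.

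Timp2, which both inhibits Mmp2 and, on Mmp14 at the cell surface, helps to activate its precursor, read 2744, 3238, 2523 and 2094 on its brightest probe set (1386940_at), or 11.43, 11.67, 11.31 and 11.04 log2 (mean 11.36 ± 0.26, SD, n = 4). That probe set ranked the tumours like Timp1, with tumour 2 highest and tumour 4 lowest. The other (1367823_at) read 716, 667, 805 and 749, and placed tumour 3 highest and tumour 2 lowest. The ranges were 0.62 and 0.27 log2, the first of them 0.36 without tumour 4, so the order of tumours for Timp2 differed between probe sets and is not settled.

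Timp3, the inhibitor that binds to the matrix and also blocks ADAM proteases, had 4 probe sets, and all 4 placed tumour 1 highest and tumour 3 lowest. The brightest (1389836_a_at) read 3244, 2673, 2099 and 2742 in tumours 1 to 4, or 11.67, 11.39, 11.05 and 11.43 log2 (mean 11.38 ± 0.26, SD, n = 4). Tumours 2 and 4 were 0.04 log2 apart on it and changed places on the other 3 probe sets. The range was 0.62 (0.28 without tumour 3) and 0.57 log2 on the brighter pair of probe sets, and 1.16 and 1.04 on the dimmer pair, so whether Timp3 had a 2-fold range depends on the probe set. Over the family, 5 genes had several probe sets. The contrast between highest and lowest tumour on the brightest kept its sign on 4 of 7 further probe sets, the 3 of Timp3 and the 1 of Mmp9.

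Seen by tumour, no cancer had the whole family high or low. Tumour 1 was highest for 2 of the 10 genes (Mmp9 and Timp3), tumour 2 for 2 (Timp1 and Timp2), tumour 3 for 4 (Mmp2, Mmp3, Mmp11 and Mmp14) and tumour 4 for 2 (Mmp7 and Mmp13). Of all named genes, 29.9%, 23.2%, 22.4% and 24.5% were highest in tumours 1 to 4, so these counts lie near the background. Tumours 1 and 3 differed by only 0.00105 log2 for Mmp2, so its highest tumour is not settled. The median difference of each tumour from the average of the remaining 3 was 0.47, 0.16, 0.09 and 0.02 log2 in tumours 1 to 4 for the 10 genes, and between -0.003 and 0.006 for all named genes. On the brightest probe sets, tumour 4 combined the highest Mmp13 and Mmp7 signals with the lowest Mmp2, Timp1 and Timp2 signals. On the same probe sets, tumour 3 combined the lowest Mmp13, Mmp9 and Timp3 signals with high Mmp14 and Mmp11. The dimmer Mmp9 probe set was lowest in tumour 2, and the other Mmp14 probe set placed tumour 3 below tumours 1 and 2.

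In 4 of the 10 genes a tumour stood at least 2-fold beyond each of the others, against 6.75% of named genes. Tumour 4 was so far above for Mmp13 (0.717% of named genes) and below for Mmp2 (0.879%), tumour 3 below for Mmp13 (1.11%), tumour 1 above for Mmp9 (1.89%) and tumour 2 below for Mmp7 (0.471%). Between pairs of tumours, 2 to 4 of the 10 genes differed by 2-fold or more. The smallest number, 2 (Mmp7 and Mmp13), was found between tumours 2 and 3, against 5.99% of named genes. Each of the pairs 1 and 2, 1 and 4, 2 and 4, and 3 and 4 had 4 such genes, against 8.57%, 9.35%, 6.27% and 7.77% of named genes. Tumours 1 and 3 had 3, against 10.5%. Mmp13 was among them in all 6 pairs.

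By a fixed measure of likeness, the genes of most similar pattern were named for the 3 genes with a 4-fold range. The measure was the largest difference over the 4 tumours between profiles centred on their own means, among genes at or above the median level with a 4-fold range of their own. For Mmp13 the nearest were Ccn3, a matricellular protein, at 0.42 log2, Actg2, the smooth muscle gamma actin, at 0.57, and Gabrp, a subunit of the GABA receptor, at 0.73. Ccn3 was at 9.38, 8.65, 7.73 and 10.74 log2 in tumours 1 to 4, with the same order as Mmp13, and was the only one of 227 genes within 0.5 log2. For Mmp9 the nearest were Ccl28, an epithelial chemokine, at 0.11 log2, Mroh3 at 0.17 and C3h15orf48 at 0.27, and 19 of 228 genes were within 0.5. Since Mmp9 was dim, this likeness is to a compressed profile. No gene came within 0.5 log2 of Mmp7, and the nearest, the complement gene C3, was 0.89 away. With only 4 tumours, such likeness is a description of these arrays.

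Of the other metalloproteinases and inhibitors, 12 of 17 listed genes had a named probe set. A 2-fold range was found in 7 of the 12, against 21.1% of all named genes. The largest was that of Timp4, a TIMP outside the 10 genes, which was at 10.96, 8.24, 7.64 and 9.29 log2 in tumours 1 to 4, a range of 3.32. Unlike Timp1 to Timp3, Timp4 had a 4-fold range, so the narrow range of TIMPs given above holds for those 3 genes only. Mmp12, the elastase of macrophages, was at 10.49, 9.55, 8.82 and 9.81 log2, which is the order of tumours found for the first Mmp9 probe set, with tumours 1 and 4 above 2 and 3. Mmp28, a metalloproteinase of epithelium, ranged over 2.16 log2, between 4.70 and 6.85, but was under the median level in every tumour.

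Some membrane-bound enzymes were highest in tumour 3. Mmp17 was at 9.00 log2 in tumour 3, against 7.92 to 8.07 in the others. Mmp16 was at 7.65 in tumour 3, against 6.54 to 6.56, and stayed under the median level, as did Mmp10 and Mmp8. Mmp10 was at 5.81 in tumour 1 against 4.64 to 4.78, and Mmp19 ranged over 1.03 log2 with tumour 4 highest. Mmp8, Mmp15, Mmp23, Mmp24 and the membrane-anchored inhibitor Reck had ranges between 0.25 and 0.83 log2.

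**Figure D4:**
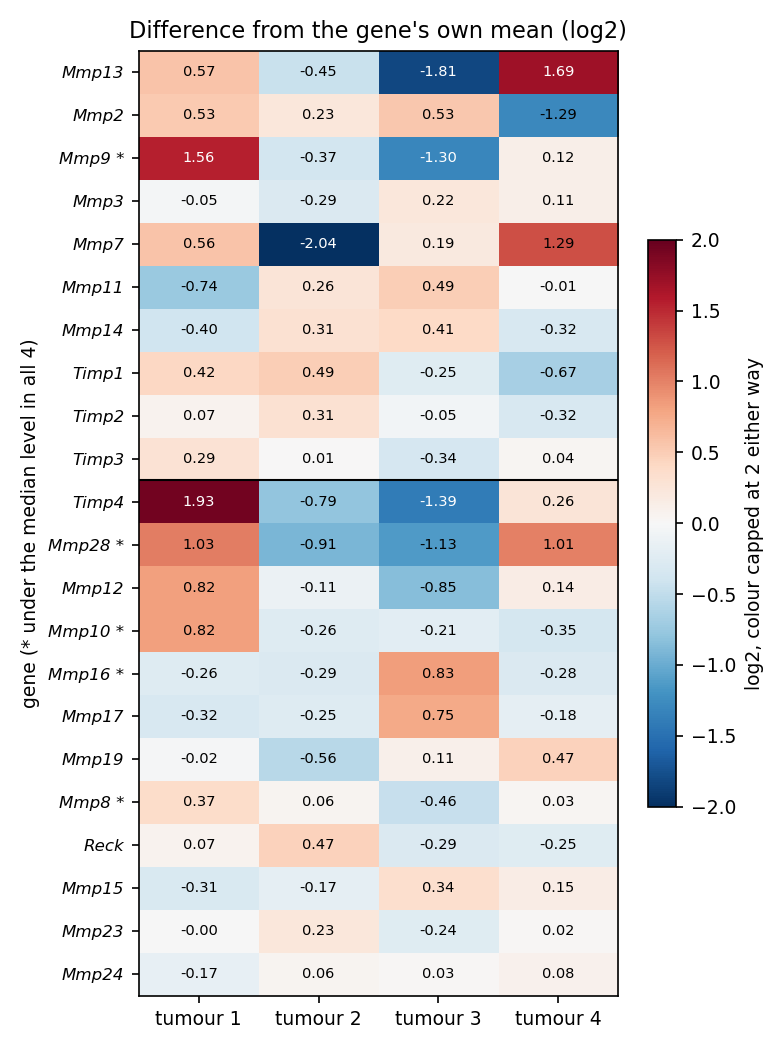
Difference of each tumour from the gene's own mean (log2, brightest probe set) for the 10 genes (above the line) and the 12 other metalloproteinases and inhibitors with a named probe set, ordered by range below the line; an asterisk marks genes under the median level in all 4 tumours. Mmp9, Timp4 and Mmp12 have tumour 1 as highest and tumour 3 as lowest on these probe sets, while the other Mmp9 probe set is lowest in tumour 2.

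Genes that activate, anchor or clear metalloproteinases also differed between the tumours. Of 13 measured genes, 5 had a 2-fold range, against 21.1% of all named genes. Furin, the protease that removes the propeptides of Mmp11 and Mmp14, was at 10.80 log2 in tumour 1, against 11.78 to 12.13 in the others. Tumour 1 was also the lowest for Mmp11 and for the brightest Mmp14 probe set, while the other Mmp14 probe set was lowest in tumour 4. Of the 9403 named genes at or above the median level, 3401 were lowest in tumour 1. A link between these signals was not tested. Plau, the urokinase that makes plasmin, was at 10.61 in tumour 1 against 8.89 to 9.40. Cd44, a hyaluronan receptor that can hold Mmp9 at the cell surface, was at 10.43 in tumour 1 against 8.78 to 9.34.

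The protease inhibitor Serpine2 was at 12.25 log2 in tumour 1 against 10.09 to 10.72. Plg, the precursor of plasmin, was at 5.18 in tumour 1, against 7.26 to 8.74, and was under the median level in 2 tumours. The other 8 (Bsg, Itgb3, Plat, Lrp1, Tfpi2, Plaur, Lcn2 and Spock1) had ranges between 0.22 and 0.92 log2. Among 11 measured ADAM and ADAMTS proteases, 3 had a 2-fold range on the brightest probe set, which is near the 21.1% of all named genes. Each of the 3 was highest in tumour 1 on it. Adam8, found on leukocytes, was at 8.36 log2 there against 6.79 to 7.56, Adam9 at 9.91 against 8.75 to 8.90, and Bmp1, a procollagen protease, at 10.35 against 9.22 to 9.68. Adam8 was under the median level by mean and in 3 tumours. Further probe sets disagreed, with that of Adam8 highest in tumour 2, between 4.95 and 5.99 log2, and that of Bmp1 highest in tumour 4, between 8.20 and 9.00.

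Of 17 factors known to induce metalloproteinase transcription, all measured, 7 had a 2-fold range, against 21.1% of all named genes. Fos, a subunit of AP-1, was at 9.48, 10.61, 11.18 and 11.20 log2 in tumours 1 to 4, and its dimmer probe set had a range of 0.43. Junb, another subunit, was at 10.05, 9.89, 10.58 and 10.97, a range of 1.08, with tumour 4 highest. The AP-1 subunit genes Jund, Fosl2, Jun and Fosl1 had ranges of 0.62, 0.52, 0.37 and 0.13 log2 on their brightest probe sets. Further Jund probe sets, under the median level by mean, disagreed. On 1387762_s_at the range was 4.10, from 4.28 in tumour 1 to 8.38 in tumour 2, and on 1375768_at it was 0.73. The inflammatory cytokine Il1b was at 8.60 log2 in tumour 1 against 6.82 to 7.75, and Tnf was at 7.90 in tumour 1 against 5.12 to 6.66. Both were under the median level by mean and in 3 tumours each, so the size of these differences is uncertain. Osm, a cytokine of the interleukin-6 family, and Fosb, an AP-1 subunit too, were under the median level in all 4 tumours, with ranges of 1.95 and 2.07. Ets2, an ETS factor, was at 10.65 in tumour 1 against 11.61 to 11.90.

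Over these 53 measured genes of 61 listed, 22 had a 2-fold range, against 21.1% of all named genes. The median range was 0.80 log2, against 0.55 over all named genes. Without tumour 1 the count was 10, and the share of all named genes fell to 12.8%.

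The cancers carried the markers of mammary epithelium that the tissue label implies, with all 10 luminal markers at or above the median level. Luminal markers were lowest in tumour 1 in 9 of 10 genes, with a median difference of -0.82 log2. Of the 9403 named genes at or above that level, 3401 were lowest in tumour 1, with a median difference of -0.04 log2. Basal and myoepithelial markers had a median difference of 0.01, 0.16, -0.36 and 0.27 log2 in tumours 1 to 4. In tumour 4, where Mmp13 and Mmp7 were highest, 9 of 10 exceeded the average of tumours 1 to 3, against 50.9% of all named genes. However, 4 of the 10 were highest in tumour 1 and 4 in tumour 4. Krt14, the basal keratin, was at 12.39 log2 in tumour 1 and 8.24 in tumour 3, against 11.34 and 11.45 in tumours 2 and 4. Krt5, another basal keratin, was at 12.83 in tumour 3 against 12.82 to 13.09. In tumour 3, a total of 3 of the 10 basal markers exceeded the average of the others and 5 were lowest. Of all 14217 named genes, 49.6% exceeded that average in tumour 3 and 3670 were lowest there. The part of these cells in the Mmp13 and Mmp7 differences was not tested. Endothelial markers differed by -0.47 to 0.31 log2 and adipocyte markers by -0.36 to 0.32, and 7 of 8 skeletal muscle markers were under the median level by mean, with differences of -0.17 to 0.03.

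**Figure D5:**
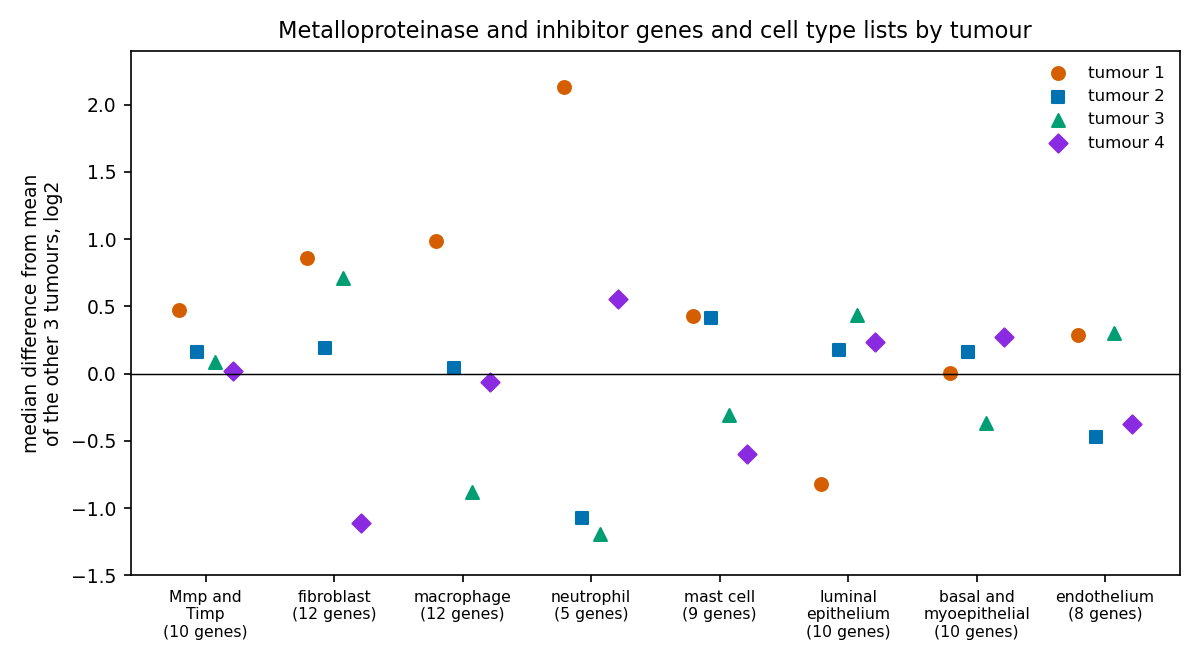
Median difference of each tumour from the average of the remaining 3 (log2) over the 10 metalloproteinase and inhibitor genes and over the measured genes of 7 cell type lists; each symbol is 1 tumour. Fibroblast markers are lowest in tumour 4 (-1.11), and macrophage (0.98) and neutrophil (2.13) markers are highest in tumour 1.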

How the data were processed

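The data are 1 array for each of 4 mammary cancers. Per the labels' protocols, 8 µg of total RNA was primed with oligo-dT and transcribed into biotin-labelled cRNA, so signal comes mostly from the 3' end of transcripts. The authors deposited linear intensity values for 31099 probe sets. How these were computed from the scans is not stated in any source used. Trimmed means (2% off either end) were 500.1 on every array, so the arrays had been scaled to a common level, and no pair was identical. Median signals lay between 202 and 222. Log2 ratios of 3' over 5' control signal were -0.02 to 0.04 for GAPDH and 0.30 to 0.48 for beta-actin.

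Values were kept on the deposited scale and transformed as log2(value + 16) with Python 3.11.15 and pandas 2.3.3. Probe sets were named from the platform annotation. Of 21262 listed, 436 name several genes and were left out, and 20826 name 1 gene. Of these, 20758 gene identifiers were found in RefSeq (GRCr8), and no symbol changed. Promoter sequences are RefSeq's. With 1 group there is no test, and genes were described by rules of size. A simulation checked only that the code finds planted changes larger than the rule. Its noise was set small, so it gives no rate of false calls for these arrays. The 10 genes, the gene lists (further family members, activators, ADAM proteases, inducers and cell types) and the naming rule were chosen with earlier results of these data known. By that rule all 10 genes were named, with up to 6 other genes of largest range per pathway list, values of up to 3 per cell type, and the 3 most alike for each gene with a 4-fold range. Jun, Junb, Jund, Fosl1, Fosl2, Krt5 and Mcpt1 were named after their values were seen. Alternatives were other pseudocounts, median shift, quantile normalization, a level filter, averaged probe sets and leaving out each tumour. The number of arrays limits the precision.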

Additional observations from a re-analysis of the deposited data

Results flagged for a closer look

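Mmp2 probe set 1370301_at was marked because tumour 4 lay far from the others. Its gap to the nearest tumour was 0.834 of the whole range, just above Dixon's 95% critical value for 4 samples. The values were 11.94, 11.63, 11.94 and 10.11 log2 in tumours 1 to 4, and the dimmer Mmp2 probe set showed no such gap. Chance marks about 1 in 20 sets of values, and 17 probe sets were examined, so about 0.85 would be marked by chance if they were independent.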

How the results depend on the processing

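The counts over the 10 genes stayed within 1.5 times under every alternative run. The number with a 2-fold range was 6 and was 5 or 6 under the processing alternatives (5 with averaged probe sets and with the level filter, which removes Mmp9), and 4 to 6 with 1 tumour left out. The number with a 4-fold range was 3, or 2 with a pseudocount of 64 and with the filter, where Mmp9 drops out, and 2 to 3 with 1 tumour left out. The number with a tumour apart was 4, or 3 with averaged probe sets and with the filter, and 3 to 5 with 1 tumour left out, and 9 probe sets with a 2-fold range became 6 to 9. Of all named genes, the share with a 2-fold range was 26.9% with a pseudocount of 1, 11.4% with 64, 12.4% with the filter, 20.7% after quantile normalization, and 12.8% to 17.2% with 1 tumour left out, the lowest without tumour 1. The share with a 4-fold range, 3.99%, was 9.41% with a pseudocount of 1, 1.83% with 64 and 1.79% without tumour 1. The count of 22 other pathway genes was 13 with the filter, which leaves fewer genes, and 10 to 19 with 1 tumour left out, the lowest without tumour 1. Of 59 ranges of single genes under processing alternatives, 57 moved by less than 1 SD of the gene's own log2 values between tumours. That is a wide limit and no measure of processing error. Among the 57 was Mmp9, whose range was 3.95 log2 with a pseudocount of 1 and 1.69 with 64. The 2 that moved further were Mmp2 (0.78 log2) and Timp2 (0.23) with averaged probe sets, whose probe sets disagree. Of 40 ranges with 1 tumour left out, 7 moved by at least 1 SD, which follows from removing an extreme tumour. The highest or lowest tumour changed only for Mmp2 (quantile normalization and averaged probe sets) and Mmp14 (averaged probe sets) among the processing alternatives. No paired analysis was possible because all samples form 1 group.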

Other observations

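Mast cells, whose granule proteases can activate metalloproteinase precursors, were followed by 9 marker genes, all with a named probe set. Of the 9, 3 had a mean at or above the median level (Kit, Cpa3 and Tpsb2), and Kit is also made by mammary epithelium. Cpa3, the mast cell carboxypeptidase, was at 8.51, 8.86, 8.14 and 7.86 log2 in tumours 1 to 4, and Tpsb2, a tryptase, at 8.99, 9.09, 8.35 and 8.21. Cma1, the chymase, was at 7.82, 8.16, 7.05 and 4.67 log2, a range of 3.48. Its mean was under the median level and its signal in tumour 4 was only 9.52, so the size of this range is uncertain. The median difference of each tumour from the average of the remaining 3 was 0.43, 0.41, -0.31 and -0.60 log2 in tumours 1 to 4 over the 9 genes. Tumours 1 and 2 each exceeded that average for 8 of the 9, against 49.8% and 50.9% of all named genes. Kit and Mcpt1 had another order, with tumour 1 highest, then tumours 4, 2 and 3, and Mcpt1 was under the median level in every tumour. Tumours 1 and 2 were also the 2 tumours with the higher Timp1 signal. Tumour 4, with the highest Mmp13 and Mmp7, was lowest for 6 of the 9, against 3312 of all 14217 named genes. The part of mast cells in these differences was not tested.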
